A study of Arabidopsis thaliana with 9 samples.

Results

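Glutathione transferases of the phi class (GSTF) and the tau class (GSTU) were described here in seedlings of 3 Arabidopsis thaliana genotypes. The members were the rows of the expression table whose gene identifier was on a list of 33 genes, 9 phi and 24 tau, of 37898 genes in all. Polyadenylated RNA was sequenced from seedlings 2 weeks old, all in the Col-0 ecotype, all under the treatment named Mock and all grown in long days. The groups were nrpe1-11, a mutant allele of the gene for the largest RNA polymerase V subunit (NRPE1), nrpd1-3, a mutant allele of the corresponding RNA polymerase IV gene (NRPD1), and wild-type Col-0, with n = 3 libraries each. Each mutant was 1 allele, and no source used here states that the 3 libraries of a group are from different plants. The p-values therefore describe only how far these libraries vary, and that variation may be technical. Both polymerases act in RNA-directed DNA methylation, and the series title concerns a role of polymerase V transcripts outside that pathway, in gene regulation and defence. The comparison of nrpe1-11 with libraries labelled nrpd1-3 describes RNA levels, and such a role was not tested.

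Glutathione transferases join the thiol of glutathione to reactive, electron-poor compounds, and the conjugates are pumped into the vacuole by ABCC transporters. Phi and tau are the large plant classes of the family. Many of their genes lie in tandem arrays and are induced by xenobiotics, oxidised lipids, salicylic acid or pathogens, in part through TGA transcription factors that bind TGACG motifs. Some members act in named pathways of Arabidopsis. GSTF6 has been placed in the synthesis of the phytoalexin camalexin, GSTF11 and GSTU20 in aliphatic glucosinolate synthesis, GSTU13 in indole glucosinolate metabolism, and GSTF12 (TT19) in anthocyanin transport.

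The 33 genes lay on all 5 chromosomes, and 21 of them formed 7 tandem groups of listed genes. Phi and tau genes outside the list were not counted, so a group may extend further. By locus number, GSTF5 (AT1G02940) and GSTF4 (AT1G02950) are close to GSTF6, and GSTU21 (AT1G78360) and GSTU23 (AT1G78320) to GSTU20 and GSTU22. Coordinates are from the TAIR10.1 annotation, and the processing notes name TAIR10. The phi tandem pairs were GSTF6 (AT1G02930, chr1:661088-662475) with GSTF7 (AT1G02920, chr1:658578-659980), and GSTF9 (AT2G30860, chr2:13138882-13140392) with GSTF10 (AT2G30870, chr2:13141290-13142676). The other phi genes were GSTF2 (AT4G02520, chr4:1110343-1112033), GSTF3 (AT2G02930, chr2:851156-852321), GSTF8 (AT2G47730, chr2:19556326-19559485), GSTF11 (AT3G03190, chr3:734892-735987) and GSTF12 (AT5G17220, chr5:5658416-5659661).

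The longest tau array held 7 listed genes on the minus strand of chromosome 2, GSTU1 (AT2G29490, chr2:12631341-12632538), GSTU2 (AT2G29480, chr2:12630198-12631321), GSTU3 (AT2G29470, chr2:12628422-12629640), GSTU4 (AT2G29460, chr2:12626478-12627891), GSTU5 (AT2G29450, chr2:12624403-12625790), GSTU6 (AT2G29440, chr2:12619630-12621231) and GSTU7 (AT2G29420, chr2:12617936-12618899). The other tau arrays were on chromosome 1. They were GSTU11 (AT1G69930, chr1:26337481-26338818) with GSTU12 (AT1G69920, chr1:26334250-26335630), GSTU17 (AT1G10370, also named ERD9, chr1:3396883-3398358) with GSTU18 (AT1G10360, chr1:3395551-3396953), GSTU19 (AT1G78380, chr1:29486387-29488007) with GSTU20 (AT1G78370, chr1:29484120-29485389) and GSTU22 (AT1G78340, chr1:29472845-29474003), and GSTU24 (AT1G17170, chr1:5869543-5870883) with GSTU25 (AT1G17180, chr1:5872024-5873124) and GSTU26 (AT1G17190, chr1:5875295-5876620). The tau genes in none of these groups were GSTU8 (AT3G09270, chr3:2848183-2849686), GSTU9 (AT5G62480, chr5:25088527-25089626), GSTU10 (AT1G74590, chr1:28023627-28024860), GSTU13 (AT1G27130, chr1:9425280-9426897), GSTU16 (AT1G59700, chr1:21936278-21938001), GSTU27 (AT3G43800, chr3:15660770-15661987) and GSTU28 (AT1G53680, chr1:20038320-20039164). By locus number, GSTU14 (AT1G27140) is close to GSTU13 and GSTU15 (AT1G59670) to GSTU16, but both are outside the list.

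The promoters of 4 members are printed because these genes carry the contrasts described below: the phi gene GSTF7, the tau gene GSTU17, and GSTU4 and GSTU7 of the chromosome 2 array, of which GSTU4 had far lower RNA in nrpe1-11 and GSTU7 was not called. Each is the 250 bases before the annotated gene start, read from TAIR10.1 on the minus strand, 5′ to 3′. The windows are chr1:659981-660230 for GSTF7, chr1:3398359-3398608 for GSTU17, chr2:12627892-12628141 for GSTU4 and chr2:12618900-12619149 for GSTU7. Capitals mark, on either strand, TGACG (reverse CGTCA), the core bound by TGA factors, TTGAC (reverse GTCAA), the W-box core bound by WRKY factors, and CACGTG, the G-box.
GSTF7: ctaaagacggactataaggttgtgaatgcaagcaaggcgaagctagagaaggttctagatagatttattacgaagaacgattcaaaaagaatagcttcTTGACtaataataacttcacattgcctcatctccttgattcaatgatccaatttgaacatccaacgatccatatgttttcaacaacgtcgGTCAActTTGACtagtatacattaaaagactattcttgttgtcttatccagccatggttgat
GSTU17: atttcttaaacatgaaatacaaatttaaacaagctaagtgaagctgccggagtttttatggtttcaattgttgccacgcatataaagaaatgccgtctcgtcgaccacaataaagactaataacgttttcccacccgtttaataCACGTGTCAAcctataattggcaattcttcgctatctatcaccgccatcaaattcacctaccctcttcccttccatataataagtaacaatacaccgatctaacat
GSTU4: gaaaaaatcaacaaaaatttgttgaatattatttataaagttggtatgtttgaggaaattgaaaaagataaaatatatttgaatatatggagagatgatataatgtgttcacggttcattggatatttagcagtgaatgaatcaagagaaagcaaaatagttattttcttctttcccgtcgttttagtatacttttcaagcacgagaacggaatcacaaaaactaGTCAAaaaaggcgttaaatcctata
GSTU7: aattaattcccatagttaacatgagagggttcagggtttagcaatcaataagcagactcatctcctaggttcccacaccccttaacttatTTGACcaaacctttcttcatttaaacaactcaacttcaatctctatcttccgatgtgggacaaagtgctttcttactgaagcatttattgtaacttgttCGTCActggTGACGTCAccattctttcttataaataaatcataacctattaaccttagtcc
GSTF7 held 3 TTGAC matches and no G-box. The best gapped local alignment of the GSTU4 and GSTU5 windows covered 139 columns, of which 62.6% were identical. Unrelated windows were not aligned, so this value has no baseline. In GSTU17 the G-box and a TTGAC match overlap by 1 base. GSTU7 held 3 TGACG matches, the last pair of which overlap as a palindrome, and GSTU4 held none.

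Over the 33 windows, TGACG was found in 14 (42.4%), against 18.6% of the 27443 windows of protein-coding genes. TTGAC was found in 21 member windows (63.6%), against 44.9% of protein-coding genes, and the G-box in 3 (9.09%), against 6.49%. TGACG and TTGAC overlap where the sequence reads TTGACG, and such a stretch counts for both motifs. Of the 14 genes called lower in nrpe1-11 against Col-0, 4 held TGACG and 10 held TTGAC. Of the other 19 members, 10 held TGACG and 11 held TTGAC. A match is a description of the letters in this window, and no match says only that the letters were not there.

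Values are FPKM, fragments scaled by transcript length and library size, as deposited. The spacing of low FPKM values put the aligned sequence of a library at 1.01 to 1.25 gigabases. Ribosomal RNA genes took 14.2% to 21.4% of the FPKM, most in Col-0 replicate 2, which also had the lowest protein-coding share (67.0%) and the lowest summed level of both classes among the Col-0 libraries. NRPE1 was at 0.624, 0.254 and 0.339 FPKM in nrpe1-11, below the 0.831 to 0.863 FPKM of Col-0. NRPD1 was at 0.674, 0.670 and 0.948 FPKM in the libraries labelled nrpd1-3, within the range of Col-0 (0.489 to 1.06 FPKM), so RNA level does not check that label. All 3 leaf and 6 root markers were above 0 in every library, and so was the flower marker SEP3. The 4 flower markers summed to 3.34 to 4.46 FPKM in nrpe1-11, 2.19 to 2.62 in nrpd1-3 and 0.959 to 3.93 in Col-0, with AP3 at 0 in nrpe1-11. The summed leaf markers were lower in nrpe1-11 (3227 to 3813 FPKM) than in nrpd1-3 (5413 to 5586) and Col-0 (5283 to 5820), and the root sums were 23.8 to 29.3, 21.6 to 28.1 and 20.8 to 25.2 FPKM in the same order. The root sums hide markers that went apart. PIN2, EXPA7 and CASP1 were higher in every nrpe1-11 library than in every Col-0 library, IRT1 was lower, and COBL9 and SCR overlapped. The part of these marker differences in the values below was not tested, and in bulk seedlings fewer cells of a type and less RNA per cell cannot be told apart.

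In Col-0 the highest member was GSTF2, at 679 ± 28.5 FPKM (mean ± SD, n = 3), followed by GSTF6 (440 ± 57.1), GSTF7 (326 ± 44.2), GSTF9 (240.0 ± 17.0) and GSTF10 (210.2 ± 36.0). GSTU19, known from responses to herbicide safeners, was the highest tau gene at 161 ± 29.8 FPKM, and the next, GSTU20, was at 33.0 ± 3.06 FPKM. GSTF9 overlapped GSTF10 and GSTF10 overlapped GSTU19, whereas GSTF2, GSTF6 and GSTF7 were separate from one another. From rank 14 (GSTU1, 9.53 FPKM) to rank 31 (GSTF11, 0.927 FPKM) every gene overlapped the next. GSTF12 was at 0.5998 FPKM in 1 Col-0 library, 0.142 FPKM in 1 library labelled nrpd1-3 and 0 in the other 7, and GSTU6 reached an FPKM of 1 in 1 library, so neither was tested.

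The order of the genes differed between the genotypes. GSTF6 was the 8th highest member in nrpe1-11, at 28.5 ± 0.660 FPKM, and the 2nd in both other genotypes. GSTF2 was the highest in each. GSTU4 was 21st in nrpe1-11, against 11th in nrpd1-3 and in Col-0, and GSTU17 was 29th in nrpe1-11, 17th in nrpd1-3 and 20th in Col-0. In libraries labelled nrpd1-3 the 11 highest genes by mean were in the same order as in Col-0.

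**Figure D1:**
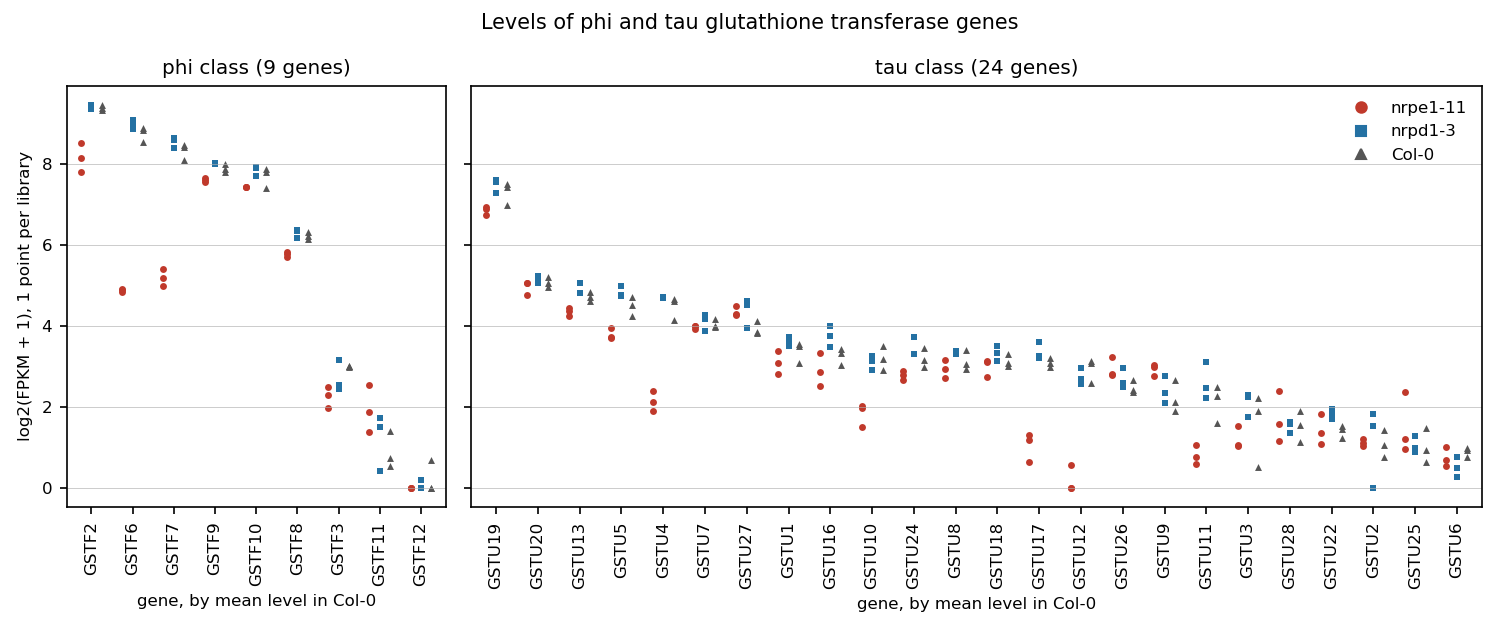
Level of each phi and tau gene on the log2(FPKM + 1) scale, 1 point per library, with nrpe1-11 left, nrpd1-3 centre and Col-0 right, genes ordered by their mean in Col-0. GSTF6, GSTF7, GSTU4, GSTU17 and GSTU12 in nrpe1-11 lie far below the points of both other genotypes, while GSTU7 overlaps in all 3 genotypes.

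The summed level of the listed phi genes was 779, 713 and 869 FPKM in nrpe1-11, against 2250, 2066 and 2147 FPKM in nrpd1-3 and 2059, 1777 and 2095 FPKM in Col-0. The tau sum was 281, 282 and 268 FPKM in nrpe1-11, 455, 389 and 457 FPKM in nrpd1-3 and 408, 319 and 409 FPKM in Col-0. Neither sum overlapped between nrpe1-11 and either other genotype; the sums are a description without a test. All 33 genes together made up 0.310 ± 0.0175% of the protein-coding FPKM in nrpe1-11, 0.741 ± 0.0129% in nrpd1-3 and 0.709 ± 0.0339% in Col-0. The difference between nrpe1-11 and Col-0 came to -1291 FPKM, of which phi genes made up 92.2% and GSTF2, GSTF6 and GSTF7 alone 84.1%. Without GSTF2, the phi sum was still 493 ± 5.77 FPKM in nrpe1-11 against 1298 ± 149 FPKM in Col-0, and without GSTU19 the tau sum was 162 ± 2.48 against 218 ± 23.4 FPKM.

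**Figure D2:**
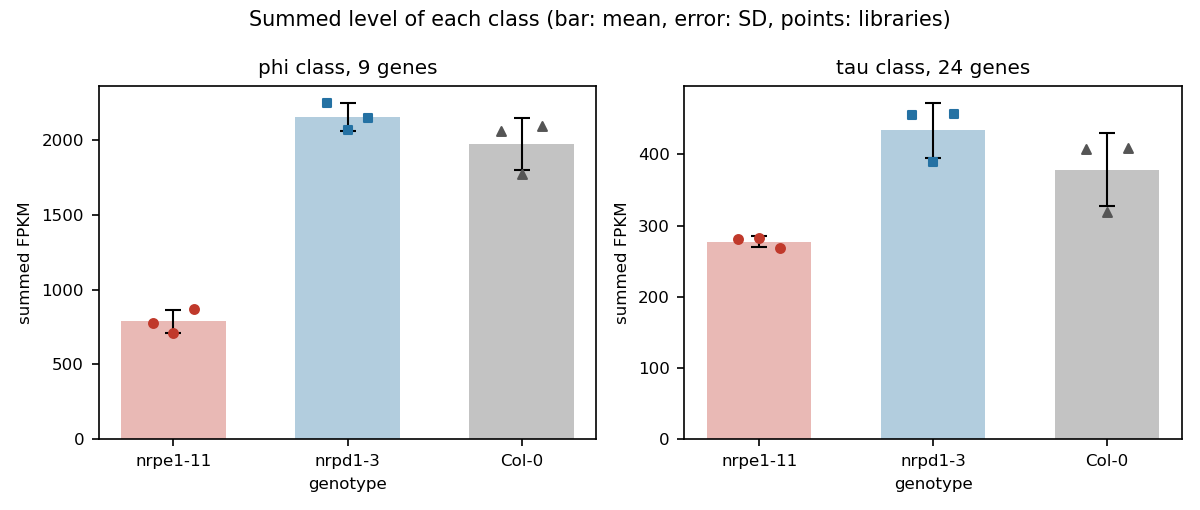
Summed FPKM of the 9 phi genes (left) and the 24 tau genes (right) in nrpe1-11, nrpd1-3 and Col-0; bars are means, error bars are SD over 3 libraries and points are libraries. Phi averaged 787 FPKM in nrpe1-11, 2154 in nrpd1-3 and 1977 in Col-0, and tau averaged 277, 434 and 378 FPKM in the same order, on separate axes.

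Each gene was then tested with limma on log2(FPKM + 1) over the 18212 genes that reached an FPKM of 1 in 3 or more libraries, and called at a Benjamini-Hochberg adjusted p under 0.05. Fold changes are on that log2 scale, which understates changes of low genes. Of the 33 members, 31 were tested. GSTU12 passed the filter only through the 6 libraries of the other genotypes, so the filter favoured a difference and its call is no support of its own. GSTU11 and GSTU17 had fewer than 3 nrpe1-11 libraries at an FPKM of 1, so they too passed with the help of the other genotypes. Counts over tested members carry that limit. In nrpe1-11 against Col-0, 15 of 31 members were called in either direction (21.7% of all tested genes were), and 20 had an unadjusted p under 0.05 (35.2% of all). Of the 31, 14 were called lower (7.54% of all tested genes were) and 1 was called higher (14.2% of all). Members were chosen with earlier results of these data known. Their shares beside all genes, here and in the comparisons below, are therefore a description and no test of the list. Among the listed phi genes 6 of 8 were lower and none higher, with a median log2 change of -0.61. Among the listed tau genes 8 of 23 were lower and 1 higher, with a median of -0.29. These counts cover the list and not the whole classes. Of 4 tested phi and tau genes outside it, given below, 0 were called lower and 2 higher. The median over all tested genes was 0.17 for this comparison, 0.11 for nrpd1-3 against Col-0 and 0.06 for nrpe1-11 against nrpd1-3. Every nrpe1-11 library was below every Col-0 library for 15 of the 31 tested members (10.7% of all genes) and above for 3, GSTU9, GSTU26 and GSTU27 (28.7% of all).

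On the log2(FPKM + 1) scale the phi genes GSTF6 and GSTF7 had the largest called decreases, whereas with a pseudocount of 0.1 the decrease of GSTU12 (-5.23) was larger than that of GSTF6. GSTF6, also named ERD11, was at 27.7, 28.6 and 29.0 FPKM in nrpe1-11, against 481, 374 and 464 FPKM in Col-0. GSTF7 was at 35.7, 41.6 and 31.0 FPKM in nrpe1-11, against 359.5, 276 and 342 FPKM in Col-0. Neither gene overlapped between the genotypes, and the highest nrpe1-11 library lay far below the lowest Col-0 library. The log2 change was -3.90 for GSTF6 (SE 0.0989, limma adjusted p = 1.21e-12) and -3.14 for GSTF7 (SE 0.119, limma adjusted p = 1.05e-10). The coding sequences of the pair were 94.3% identical, and 10.3% of the 50-base windows of the GSTF6 transcript recurred in GSTF7, so reads may have been split between them. Their sum was 63.4, 70.2 and 59.97 FPKM in nrpe1-11, 957, 808 and 904 in nrpd1-3 and 840.3, 650.3 and 806 in Col-0, which a split within the pair does not change.

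GSTF2, an enzyme known to bind camalexin and other indoles, was at 287.5, 225 and 369 FPKM in nrpe1-11, against 677, 651 and 708 FPKM in Col-0. The nrpe1-11 libraries differed more among themselves than the Col-0 libraries, and the groups did not overlap. GSTF2 fell by 1.23 on the log2 scale (SE 0.129, limma adjusted p = 6.63e-06). GSTF3, whose coding sequence was 94.5% identical to that of GSTF2, was far less abundant, at 3.88, 2.91 and 4.58 FPKM in nrpe1-11 and 7.09, 6.87 and 7.02 FPKM in Col-0. It fell by 0.76 (limma adjusted p = 0.0140). Without nrpe1-11 replicate 2 the GSTF3 change was -0.62 and was not called. No 50-base window within an exon of GSTF2 or GSTF3 recurred exactly elsewhere in the nuclear genome. Windows across exon junctions and matches with mismatches were not covered, and read length is not given. Sharing of reads between GSTF2 and GSTF3 can therefore not be excluded.

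Smaller decreases were called for GSTF8, a gene long used as a marker of early stress responses, and for GSTF9. GSTF8 was at 51.5, 54.5 and 56.2 FPKM in nrpe1-11 and 70.3, 73.7 and 79.7 in Col-0, and fell by 0.46 (limma adjusted p = 0.00253). GSTF9 was at 196, 187 and 201 FPKM in nrpe1-11 and 237, 225 and 258 in Col-0, and fell by 0.30 (limma adjusted p = 0.0136). The GSTF9 call was lost without nrpe1-11 replicate 2 (-0.27) and without Col-0 replicate 3 (-0.24). Its neighbour GSTF10, an enzyme known to bind the receptor kinase BAK1, was at 174, 172 and 173 FPKM in nrpe1-11 and 226, 169 and 236 in Col-0, and was not called (-0.26, limma adjusted p = 0.103). Col-0 replicate 2 was the library in which GSTF10 reached down to the nrpe1-11 values. Without that library GSTF10 was called lower.

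Among the tested phi genes of the list, GSTF11 alone had a positive log2 change in nrpe1-11 against Col-0. The phi gene GSTF14, outside the list, was called higher and is given below. GSTF11 was at 2.69, 1.601 and 4.81 FPKM in nrpe1-11, against 0.660, 1.66 and 0.457 FPKM in Col-0. The groups overlapped, and the log2 change of 1.04 (95% interval 0.28 to 1.80) was not called at a limma adjusted p of 0.05002, just past the threshold.

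Tau genes of low or moderate level gave the other large decreases. GSTU12 was at 0, 0.473 and 0 FPKM in nrpe1-11, against 7.79, 5.02 and 7.48 FPKM in Col-0. GSTU4 was at 2.75, 4.27 and 3.31 FPKM in nrpe1-11, against 23.7, 16.7 and 24.3 FPKM in Col-0. GSTU17, a gene known from responses to dehydration and light, was at 1.49, 1.25 and 0.554 FPKM in nrpe1-11, against 7.53, 6.96 and 8.27 FPKM in Col-0. None of the 3 overlapped between these genotypes. The log2 change was -2.75 for GSTU12 (SE 0.218, limma adjusted p = 3.71e-07), -2.34 for GSTU4 (SE 0.157, limma adjusted p = 6.30e-08) and -2.06 for GSTU17 (SE 0.193, limma adjusted p = 2.17e-06). The GSTU12 values rested on an estimated 177 aligned bases per nrpe1-11 library, against 7955 in Col-0.

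GSTU10 and GSTU11 followed. GSTU10 was at 1.82, 3.03 and 2.96 FPKM in nrpe1-11 and 8.16, 6.56 and 10.3 in Col-0, and fell by 1.38 (SE 0.191, limma adjusted p = 1.17e-04). GSTU11 was at 0.513, 0.690 and 1.08 FPKM in nrpe1-11 and 4.66, 3.79 and 2.03 in Col-0, and fell by 1.32 (SE 0.267, limma adjusted p = 0.00274). Both sets of libraries were separate from Col-0. GSTU5, GSTU19 and GSTU13 were called lower by smaller amounts. GSTU5 was at 12.4, 14.5 and 12.0 FPKM in nrpe1-11 and 22.0, 17.9 and 25.6 in Col-0 (-0.70, limma adjusted p = 0.00193).

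GSTU19 was at 122, 118 and 106 FPKM in nrpe1-11 and 184, 127 and 172 in Col-0 (-0.46, limma adjusted p = 0.0167). GSTU13 was at 18.1, 20.7 and 19.9 FPKM in nrpe1-11 and 27.6, 23.6 and 25.3 in Col-0 (-0.37, limma adjusted p = 0.0303). Both genes were separate between the genotypes by a narrow margin. The GSTU19 call was lost without nrpe1-11 replicate 3 (-0.41), Col-0 replicate 1 (-0.36) or Col-0 replicate 3 (-0.41). The GSTU13 call was lost without nrpe1-11 replicate 1 (-0.31), nrpe1-11 replicate 3 (-0.38), Col-0 replicate 1 (-0.31) or Col-0 replicate 3 (-0.37).

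GSTU9 was the 1 member called higher. It was at 7.26, 5.84 and 6.88 FPKM in nrpe1-11, against 3.32, 2.71 and 5.33 FPKM in Col-0, without overlap. The log2 change was 0.71 (SE 0.216, limma adjusted p = 0.0294). The call did not hold without nrpe1-11 replicate 1 (0.66), nrpe1-11 replicate 3 (0.69), Col-0 replicate 1 (0.66) or Col-0 replicate 2 (0.55).

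The 14 tau genes that were not called included GSTU20, second to GSTU19 in level in every genotype. GSTU20 was at 32.4, 26.2 and 32.4 FPKM in nrpe1-11 and 30.3, 32.3 and 36.3 in Col-0, a log2 change of -0.12 with a 95% interval of -0.36 to 0.12. Of the pair known for detoxifying trinitrotoluene, GSTU24 was at 6.37, 5.38 and 5.92 FPKM in nrpe1-11 and 7.92, 6.98 and 9.99 in Col-0 (-0.42, limma adjusted p = 0.0754), and it was called lower without Col-0 replicate 2. GSTU25 was at 1.31, 4.19 and 0.934 FPKM in nrpe1-11 and 0.895, 0.566 and 1.78 in Col-0. The GSTU25 value of nrpe1-11 replicate 2 stood apart from the other 8 libraries. GSTU1, GSTU2, GSTU3, GSTU7, GSTU8, GSTU16, GSTU18, GSTU22, GSTU26, GSTU27 and GSTU28 had log2 changes between -0.36 (GSTU16) and 0.47 (GSTU26).

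**Figure D3:**
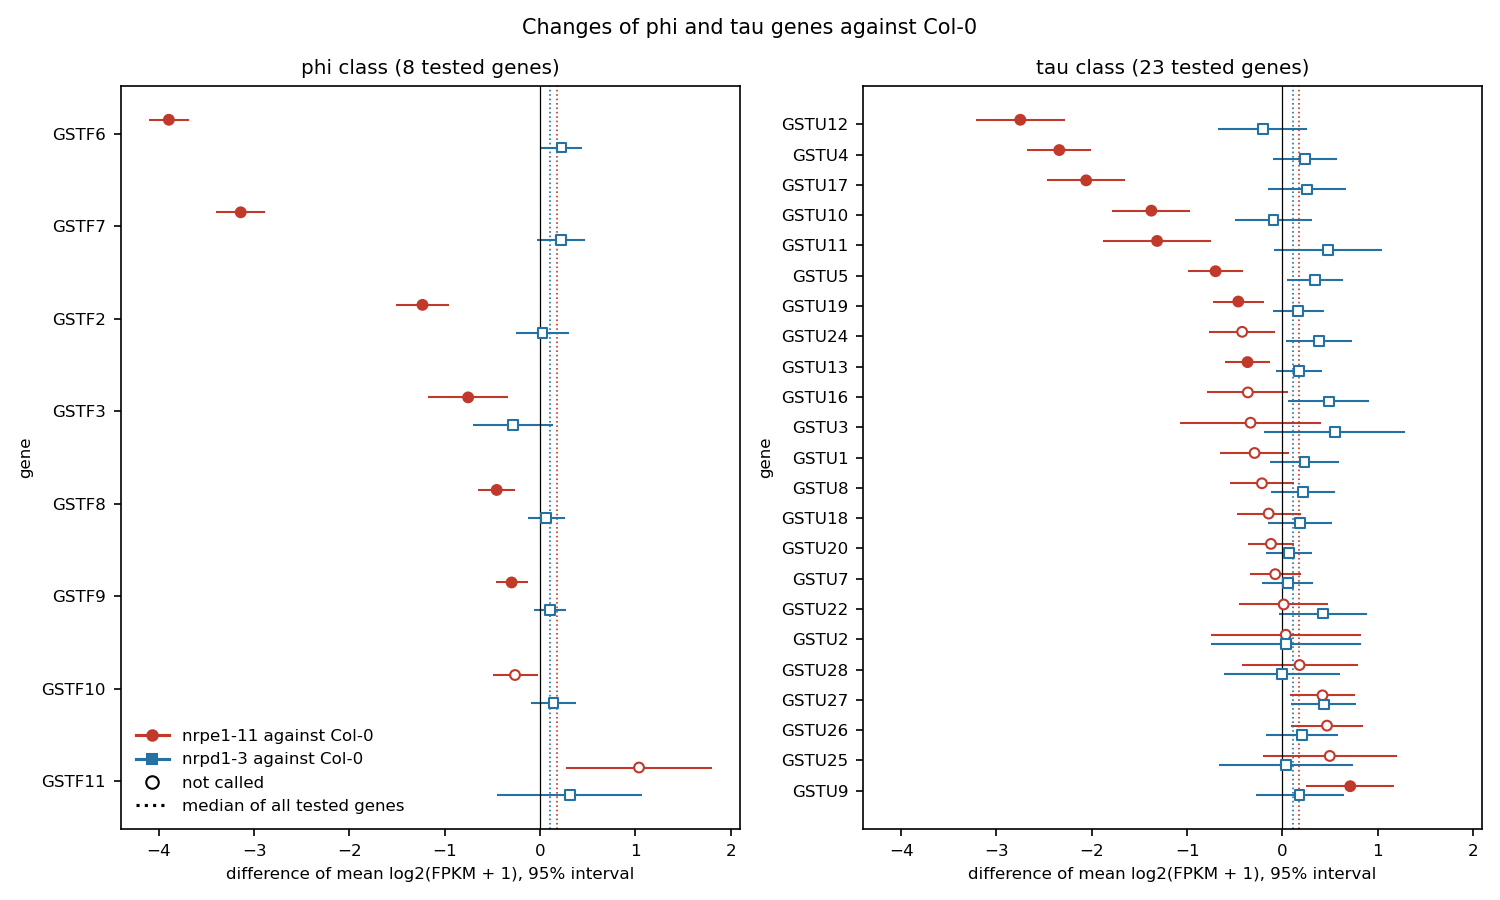
Differences of mean log2(FPKM + 1) against Col-0 for nrpe1-11 (circles) and nrpd1-3 (squares), with 95% intervals; filled symbols are called by limma, open symbols are not, and dotted lines mark the median of all 18212 tested genes. Called nrpe1-11 changes run from -3.90 (GSTF6) to 0.71 (GSTU9), and no nrpd1-3 symbol is filled.

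In libraries labelled nrpd1-3 against Col-0, limma called 0 of 31 members and 0 of all 18212 genes (0%). At an unadjusted p under 0.05 there were 5 members, GSTU27, GSTU5, GSTU16, GSTU24 and GSTF6, beside 1284 of all genes (7.05%). That number was 8 without nrpd1-3 replicate 2, 2 without nrpd1-3 replicate 1 or Col-0 replicate 2, 1 without nrpd1-3 replicate 3, and 1 after median-ratio rescaling. GSTU27 was at 23.5, 14.6 and 22.1 FPKM in nrpd1-3 and 13.4, 13.2 and 16.5 in Col-0, a log2 difference of 0.43 (SE 0.160, limma adjusted p = 0.681). GSTU5 was at 25.9, 26.3 and 31.0 FPKM in nrpd1-3 and 22.0, 17.9 and 25.6 in Col-0, a difference of 0.34 (SE 0.136, limma adjusted p = 0.681). GSTU16 was at 15.1, 10.2 and 12.6 FPKM in nrpd1-3 and 9.72, 7.15 and 9.12 in Col-0, a difference of 0.49 (SE 0.199, limma adjusted p = 0.681). All 3 were higher on average, GSTU27 with overlap and the other two without. No member had every nrpd1-3 library below every Col-0 library (1.56% of all genes did), and 4 had every library above (10.1% of all). The phi median was 0.12 and the tau median 0.21. GSTF6 and GSTF7 had log2 differences of 0.22 (95% interval 0.01 to 0.43) and 0.22 (-0.04 to 0.47). A p that misses the threshold does not show that these genotypes were alike.

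In nrpe1-11 against libraries labelled nrpd1-3, 16 of 31 members were called (14.7% of all genes), all 16 lower (8.52% of all) and 0 higher (6.19% of all). They were 6 of 8 phi genes, with a median log2 difference of -0.50, and 10 of 23 tau genes, with a median of -0.53. At an unadjusted p under 0.05 there were 21 members (27.6% of all genes), of which GSTU9 was the 1 with a higher level. Every nrpe1-11 library was below every nrpd1-3 library for 21 members (14.5% of all genes) and above for 1, GSTU9 (19.0% of all). This comparison shares the nrpe1-11 libraries with the one against Col-0, so the values stand side by side and their likeness is not a result of its own.

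On the log2(FPKM + 1) scale, but not with a pseudocount of 0.1, which put GSTU12 at -5.00, the largest differences were those of GSTF6 (-4.12, limma adjusted p = 5.34e-13) and GSTF7 (-3.36, limma adjusted p = 4.25e-11). GSTU4 followed at -2.58 (limma adjusted p = 1.77e-08), with 25.3, 25.0 and 25.5 FPKM in nrpd1-3, and GSTU12 at -2.54 (limma adjusted p = 7.23e-07), with 6.76, 4.87 and 5.40 FPKM in nrpd1-3. GSTU17 was at 11.2, 8.64 and 8.19 FPKM in nrpd1-3 (-2.32, limma adjusted p = 5.38e-07). None of these genes overlapped between nrpe1-11 and nrpd1-3. GSTU11 (-1.80), GSTU10 (-1.28), GSTF2 (-1.26) and GSTU5 (-1.04) were called as well.

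GSTU16 (-0.85, limma adjusted p = 0.00828), GSTU24 (-0.81, limma adjusted p = 0.00274) and GSTF10 (-0.40, limma adjusted p = 0.0221) were called here and not against Col-0. GSTU24 was at 12.3, 8.93 and 12.3 FPKM in nrpd1-3. GSTF10 was at 238, 209 and 242 FPKM in nrpd1-3. All 3 genes were separate between nrpe1-11 and nrpd1-3. The GSTF10 call was lost without nrpe1-11 replicate 1 (-0.41), replicate 2 (-0.40) or replicate 3 (-0.40), and without nrpd1-3 replicate 1 (-0.38) or replicate 3 (-0.36). GSTU19 (-0.63), GSTU13 (-0.54), GSTF8 (-0.52) and GSTF9 (-0.41) completed the list, and GSTF3 (-0.47) was not on it.

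Tandem copies were compared by the ratio of neighbouring genes in each library, tested with limma over all 18207 pairs of neighbouring tested genes. Of 13 member pairs, 6 had a called ratio in nrpe1-11 against Col-0 (17.7% of all pairs) and 6 in nrpe1-11 against nrpd1-3 (16.4% of all pairs). GSTU4/GSTU3, GSTU5/GSTU4, GSTU7/GSTU5, GSTF7/GSTF6 and GSTU18/GSTU17 were called in both. GSTU12/GSTU11 was called against Col-0 and GSTU24/GSTU25 against nrpd1-3. Neighbouring means next to each other among tested genes, so other genes can lie between. GSTU7 and GSTU5 lie 5503 bases apart with 4 genes of the expression table between them, among them GSTU6, which was not tested. GSTU22 and GSTU20 lie 10116 bases apart with 3 genes between. GSTU5/GSTU4 and GSTU2/GSTU1 each had 1 gene between.

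The chromosome 2 array held neighbours with clearly different responses. GSTU5 and GSTU4 lie 687 bases apart and had nearly equal levels in Col-0, with a mean log2 ratio of 0.02 ± 0.11. In nrpd1-3 the ratio was 0.12 ± 0.13 and in nrpe1-11 it was 1.66 ± 0.15 (SD, n = 3). The ratio change was 1.64 against Col-0 (SE 0.157, limma adjusted p = 3.13e-06), in that GSTU4 fell more than GSTU5. On the other side of GSTU4, the GSTU4/GSTU3 ratio was 0.93 ± 0.38 in nrpe1-11 and 2.94 ± 0.62 in Col-0 (change -2.01, SE 0.306, limma adjusted p = 2.66e-04). GSTU3 itself was at 1.04, 1.08 and 1.87 FPKM in nrpe1-11 and 2.73, 0.417 and 3.64 in Col-0, where replicate 2 stood apart. Without that library GSTU3 was called lower against Col-0.

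At the far ends of the array no change was called against Col-0. GSTU7 was at 15.1, 14.3 and 14.9 FPKM in nrpe1-11, against 17.1, 14.7 and 15.0 FPKM in Col-0, a log2 change of -0.08 with a 95% interval of -0.34 to 0.19. GSTU1 was at 9.39, 5.99 and 7.49 FPKM in nrpe1-11, against 10.8, 7.43 and 10.4 FPKM in Col-0 (-0.29, 95% interval -0.65 to 0.07). Both overlapped. GSTU2 was at 1.15, 1.31 and 1.06 FPKM in nrpe1-11 and 1.08, 0.687 and 1.704 in Col-0. GSTU6 was at 1.02, 0.603 and 0.438 FPKM in nrpe1-11 and 0.706, 0.922 and 0.977 in Col-0. These last genes were too low for a small change to be detectable. The GSTU7/GSTU5 ratio change was 0.63 (limma adjusted p = 0.0190), and it was not called without nrpe1-11 replicate 1 (0.58), nrpe1-11 replicate 3 (0.57) or Col-0 replicate 3 (0.49). By coding sequence GSTU4 was 83.9% identical to GSTU1, 81.6% to GSTU3 and 73.1% to GSTU5.

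**Figure D4:**
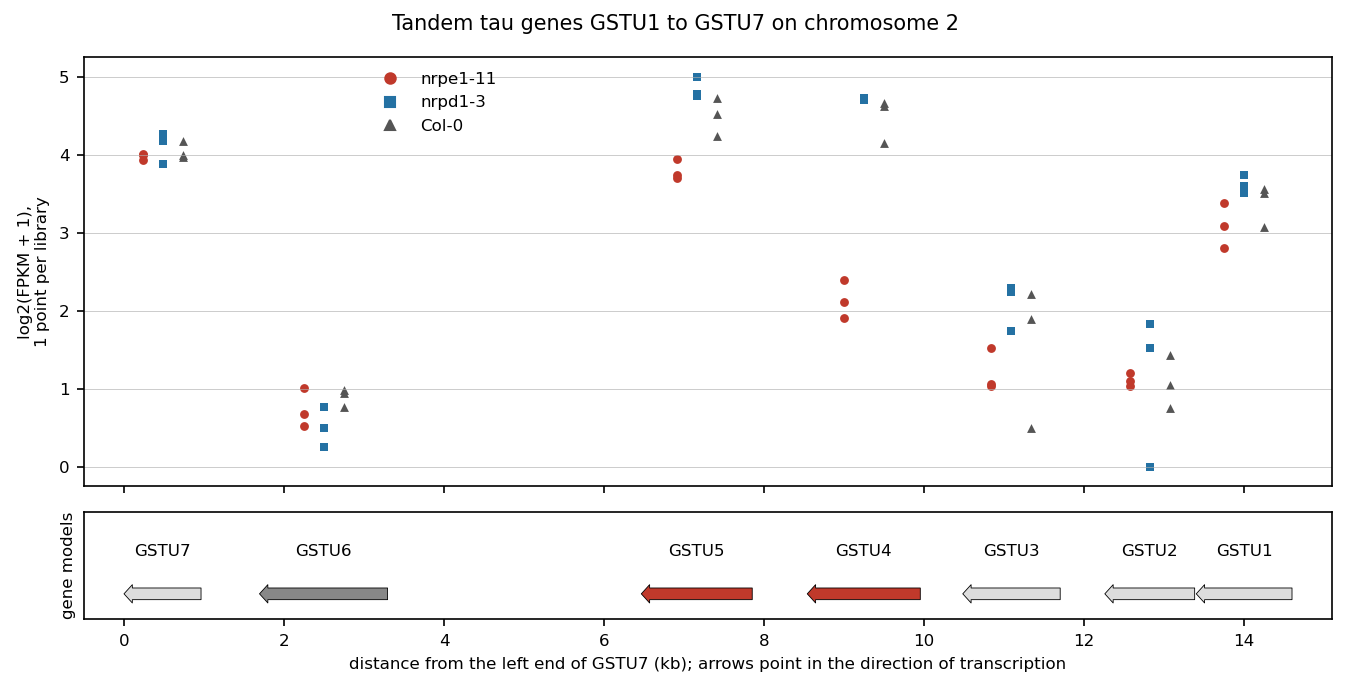
Levels of GSTU1 to GSTU7 on the log2(FPKM + 1) scale, 1 point per library, above their gene models drawn to scale by distance from the left end of GSTU7; red models are called lower in nrpe1-11 against Col-0, light grey models are not called and the dark grey model was not tested. The nrpe1-11 points of GSTU4 (2.75 to 4.27 FPKM) lie far below those of Col-0 (16.7 to 24.3 FPKM), while those of GSTU7 lie among them.

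GSTU17 and GSTU18, whose annotated gene models overlap by 71 bases on the same strand and whose coding sequences are 81.6% identical, diverged as well. GSTU18 was at 5.67, 7.71 and 7.66 FPKM in nrpe1-11, 7.74, 10.3 and 9.11 in nrpd1-3, and 8.91, 7.04 and 7.52 in Col-0. The GSTU18/GSTU17 log2 ratio was 1.95 ± 0.53 in nrpe1-11, -0.04 ± 0.39 in nrpd1-3 and 0.04 ± 0.17 in Col-0. The ratio change against Col-0 was 1.92 (SE 0.276, limma adjusted p = 1.59e-04). GSTU18 itself was not called (-0.14, 95% interval -0.48 to 0.19). Reads in the overlap may have been assigned to either gene.

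Within the GSTF6 and GSTF7 pair the ratio differed too, although both genes fell. The GSTF7/GSTF6 log2 ratio was 0.32 ± 0.22 in nrpe1-11, -0.44 ± 0.04 in nrpd1-3 and -0.43 ± 0.01 in Col-0. The change against Col-0 was 0.75 (SE 0.123, limma adjusted p = 4.62e-04), and because the pair is near-identical this ratio is uncertain. The GSTF9/GSTF10 pair had no called ratio change, with ratios of 0.17 ± 0.04 in nrpe1-11 and 0.20 ± 0.18 in Col-0 and a change of -0.04 (95% interval -0.29 to 0.22).

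For GSTU12/GSTU11, the ratio was -0.62 ± 0.43 in nrpe1-11 and 0.82 ± 0.60 in Col-0 (change -1.44, limma adjusted p = 0.0104). With GSTU12 at 0 in 2 of the 3 nrpe1-11 libraries, the pseudocount sets the size of this ratio, and with a pseudocount of 0.1 the change was -3.20. Without Col-0 replicate 3 the change was -1.10 and was not called. GSTU24/GSTU25 had a ratio of 1.27 ± 0.85 in nrpe1-11 and 2.54 ± 0.17 in nrpd1-3 (difference -1.27, limma adjusted p = 0.0187). It was not called without nrpe1-11 replicate 2 (-0.78), the library in which GSTU25 was high, or without nrpd1-3 replicate 3 (-1.17). The remaining pairs, GSTU3/GSTU2, GSTU2/GSTU1, GSTU20/GSTU19, GSTU22/GSTU20 and GSTU25/GSTU26, were not called in either comparison. The GSTU20/GSTU19 ratio change against Col-0 was 0.34 (95% interval -0.0014 to 0.69).

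**Figure D5:**
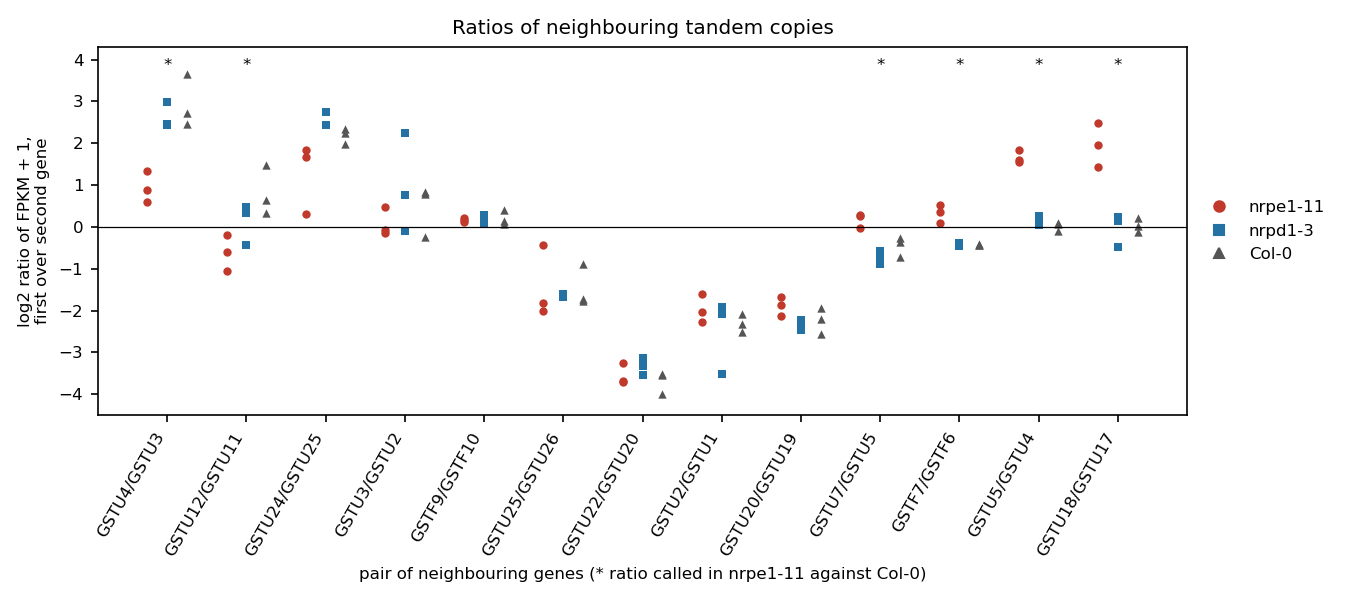
Log2 ratio of FPKM + 1 within 13 pairs of members next to each other among tested genes, 1 point per library. Points of nrpe1-11 are left, nrpd1-3 centre and Col-0 right. An asterisk marks a ratio called in nrpe1-11 against Col-0. The nrpe1-11 ratios of GSTU5/GSTU4 and GSTU18/GSTU17 lie near 1.66 and 1.95, apart from ratios near 0 in both other genotypes.

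The rest of the pathway was described from 4 gene lists. Of 8 phi and tau genes outside the 33, 4 were tested in nrpe1-11 against Col-0, 0 were called lower (7.54% of all tested genes were) and 2 higher (14.2% of all). GSTF14 averaged 46.7 ± 2.30 FPKM in nrpe1-11 and 24.04 ± 5.07 FPKM in Col-0 (0.95, limma adjusted p = 1.40e-04), and GSTU14 averaged 1.67 ± 0.807 FPKM in nrpe1-11 and 0.487 ± 0.270 FPKM in Col-0 (0.81, limma adjusted p = 0.0381). GSTU14 passed the filter only through libraries of the mutants, where its mean was higher, so its call is no support of its own. The GSTU14 call was lost without nrpe1-11 replicate 2 (0.60), nrpe1-11 replicate 3 (0.77), Col-0 replicate 1 (0.80) or Col-0 replicate 3 (0.69). It was also lost after median-ratio rescaling (0.72) or quantile normalization (0.83), with only the 6 libraries compared (0.81) and with no filter on low values (0.81). The other tested genes of this list, GSTF4 (0.13) and GSTU23 (-0.20), were not called. Of 12 zeta, theta, lambda, dehydroascorbate reductase and related genes, 11 were tested, 1 was lower and 0 higher, the first a share near the 7.54% of all tested genes. That gene was the lambda-class GSTL1, at 1.76 ± 0.343 FPKM in nrpe1-11 and 3.89 ± 1.36 in Col-0 (-0.79, limma adjusted p = 0.0261). The GSTL1 call was lost without nrpe1-11 replicate 2 (-0.70), nrpe1-11 replicate 3 (-0.80), Col-0 replicate 1 (-0.60) or Col-0 replicate 3 (-0.78), and with no filter on low values (-0.79). The median of these 11 genes was 0.01.

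Of 9 genes of glutathione synthesis, reduction and breakdown, 8 were tested, 3 were lower (7.54% of all tested genes were) and 1 higher (14.2% of all), with a median of -0.27. GGP1, a peptidase that cleaves glutathione conjugates in glucosinolate and camalexin synthesis, was at 54.0 ± 2.67 FPKM in nrpe1-11 and 114 ± 23.1 in Col-0 (-1.04, limma adjusted p = 3.56e-05). The cytosolic glutathione reductase gene GR1 was at 17.5 ± 1.59 FPKM in nrpe1-11 and 32.3 ± 3.52 in Col-0 (-0.85, limma adjusted p = 1.30e-04). GGP3, a relative of GGP1, was at 63.3 ± 5.16 FPKM in nrpe1-11 and 41.1 ± 5.20 in Col-0 (0.62, limma adjusted p = 0.00157). The genes of glutathione synthesis, named for that role, GSH1 (0.06) and GSH2 (-0.27), were not called.

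Of 12 genes of conjugate transport and the xenobiotic response, all were tested, 5 were lower (7.54% of all tested genes were) and 0 higher (14.2% of all), with a median of -0.01. OPR1, an oxophytodienoate reductase induced by reactive compounds, was at 13.5 ± 1.45 FPKM in nrpe1-11 and 39.0 ± 0.960 in Col-0 (-1.47, limma adjusted p = 9.59e-08). CYP81D8, a cytochrome P450 gene induced by xenobiotics, was at 1.16 ± 0.511 FPKM in nrpe1-11 and 8.47 ± 1.05 in Col-0 (-2.15, limma adjusted p = 6.72e-07). By that mean and SD, fewer than 3 nrpe1-11 libraries of CYP81D8 were at an FPKM of 1. It therefore passed the filter with the help of the other genotypes, and the count of 5 lower genes carries that limit. The efflux transporter gene DTX1 was at 1.62 ± 0.277 FPKM in nrpe1-11 and 6.67 ± 0.973 in Col-0 (-1.55, limma adjusted p = 6.70e-06). Also named for their roles, the conjugate transporter genes ABCC1 (0.03) and ABCC2 (-0.05) and the genes of the TGACG-binding factors TGA2 (0.02), TGA5 (0.14) and TGA6 (0.13) and of their partner SCL14 (0.22) were not called. The values of GSH1, ABCC1, TGA2, TGA5 and TGA6 turned negative after median-ratio rescaling, and that of ABCC2 turned positive without Col-0 replicate 3. In libraries labelled nrpd1-3 against Col-0, limma called 0 genes of the 4 lists.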

How the data were processed

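Days had 16 h light (22 °C) and nights 8 h (18 °C), and libraries were made from polyadenylated RNA with a NEXTflex kit, per the labels' protocols. The FPKM values were made by the authors and deposited as 1 table of 9 libraries. Genome build TAIR10, StringTie 2.1.7, HISAT2 2.2.1 and fastp 0.23.2 are named in the submitters' processing notes; strandedness, read length, settings and the handling of reads with several matches are not given in the sources used here. FPKM keep no read numbers, so the aligned bases behind a value are estimates from the spacing of low values, of which 71.0% to 75.3% lay within 0.1 of a step.

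The 37929 lines held 37898 genes, because 1 gene was on 32 lines, and 0 columns of other samples. A model of log2(FPKM + 1) with a mean for each genotype and an intensity trend used all 9 libraries (limma 3.58.1, R 4.3.3); tests were two-sided and adjusted by Benjamini-Hochberg over all 18212 genes or 18207 pairs. The same code was tested on simulated data. Tables, alignments and figures used python 3.11.15, Biopython 1.88 and matplotlib 3.10.9. Members and lists were chosen with earlier results of these data known. Full statistics went to members called with a log2 change of at least 1 in nrpe1-11 against Col-0 or in the other direction and, elsewhere, to called members or, where fewer than 3 were called, to the 3 with the smallest p; up to 3 called genes were named per list. A further promoter window is not reported here. Coding sequences took the place of proteins for identity, and 11 members overlap another annotated locus, GSTF2, GSTF8, GSTF10, GSTF11, GSTF12, GSTU2, GSTU6, GSTU7, GSTU10, GSTU17 and GSTU18, whose values are uncertain to that extent. Alternatives were another pseudocount, 2 other filters, 3 rescalings, the replicate number as a block, only the 6 libraries compared, and each library left out.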

Additional observations from a re-analysis of the deposited data

How the results depend on the processing

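Among the genes and ratios called, and the 3 genes with the smallest p in libraries labelled nrpd1-3, no value changed direction under the alternatives. The threshold was kept on the same side by 924 values and not by 48. Several alternatives leave a log2 change as it is and could not turn its direction. They are the 2 other filters, the replicate block, only the 6 libraries compared, and leaving out a library of the genotype not compared. Of the genes not called in nrpe1-11 against Col-0, 4 of 16 members (GSTU2, GSTU3, GSTU22 and GSTU28) and 14 of 23 list genes turned sign under at least 1 alternative. The number of members called lower in nrpe1-11 against Col-0 was 14, with a range of 11 to 17 over the alternatives and when leaving out each library. It was 16 against nrpd1-3, with a range of 14 to 19. All of the 14 were kept under median-ratio, quantile and protein-coding rescaling, which gave 17, 16 and 16 by adding GSTF10 and GSTU24 and, under the first, GSTU1. The count of members called higher, 1 (GSTU9) in the main fit, was the unstable one. It was 0 without a filter, after median-ratio rescaling and after quantile normalization, 2 with the replicate block and 3 with only the 6 libraries compared. When leaving out each library it was 0 to 2. At a mean FPKM of at least 5 it was also 0, but that filter left GSTU9, GSTU11 and GSTU12 untested. Over all genes the split was 2581 higher and 1374 lower, and 1184 and 2168 after median-ratio rescaling. Without a filter GSTU19 and GSTF3 were not called against Col-0, nor GSTU16 and GSTF10 against nrpd1-3. With a pseudocount of 0.1 the GSTU24/GSTU25 and GSTU4/GSTU3 ratios were not called against nrpd1-3. The cause was not tested. Members called in libraries labelled nrpd1-3 stayed at 0 throughout. Libraries of the same number had correlations of deviations of -0.072 to 0.146 1 of the 9 same-number pairs was above 0.1, and 3 of 9 libraries correlated best with their own number, so the numbers were not taken as pairs; with the replicate block 16 members were lower against Col-0 and 17 against nrpd1-3. Values below about 2 FPKM rest on few aligned bases, and small changes were not detectable there.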
